A study of Homo sapiens with 21 samples.

Results

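The genes examined are 10 endothelial genes that are typical targets of native ETS transcription factors, CD93, PECAM1, KDR, FLT1, TEK, TIE1, CD34, ESAM, ENG and VWF. They were chosen by name, with earlier results of these data known, as were the gene lists used below. CD93 was added because of its measured values, since the DAF mutant raised it where endogenous EWS/FLI lowered it. For that reason the levels of CD93 are a description, and no test is given for it in any comparison that uses the iLuc, iEF or DAF libraries. A row of the count table could be paired with 9 of the 10 genes by gene identifier, and all 9 were among the 30549 genes tested of 57820 in the table. PECAM1 is not analysed here. The levels were measured by RNA-seq in A673, an established Ewing sarcoma cell line, in 21 libraries that form 7 groups of 3.

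Every group was transduced with an shRNA on day 1 and with a cDNA retrovirus on day 5, and was held until day 16 under selection with puromycin (2 µg/ml) and hygromycin (400 µg/ml). Cells named iLuc carried a luciferase shRNA and an empty vector, and so retained their own EWS/FLI fusion. Cells named iEF carried the EWS/FLI shRNA and an empty vector. All other groups carried the EWS/FLI shRNA and 1 cDNA tagged with 3X-FLAG. These were wildtype EWS/FLI (WT-EF), Δ22, which lacks the EWS domain but keeps the FLI portion, and DAF, in which tyrosines of the degenerate hexapeptide repeats of EWS were changed to alanine. The remaining cDNAs were mut9, in which most of the EWS domain is deleted, and DAF-mut9, in which the tyrosines of the repeats left in mut9 were changed to alanine. The columns read as DAF-mut9 are headed mut9d, and every DAF-mut9 value rests on that reading. All groups come from 1 cell line, and the shRNA and cDNA were delivered by retrovirus to mixed populations, so some endogenous fusion may remain in any group with the EWS/FLI shRNA.

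ETS factors are a family of transcription factors that bind DNA around a GGAA core. In endothelial cells native members such as ERG, ETS1 and FLI1 occupy promoters and enhancers of surface receptors, junction proteins and secreted vascular factors, and these genes are widely used to recognise endothelium. EWS/FLI joins part of EWS to the ETS DNA-binding domain of FLI1, so it can read the same core motif and also binds repeats of GGAA.

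The 250 bases before the transcription start are shown for 5 of the genes, because these are the members with a promoter window that changed between groups and because the GGAA core is the motif on which ETS factors act. The sequences are from RefSeq (GRCh38.p14), are written 5′ to 3′ on the strand of the gene, and carry each GGAA or its reverse complement TTCC in capitals. TIE1 lies at chr1:43300732-43300981 (plus strand), CD34 at chr1:207911126-207911375 (minus), KDR at chr4:55125596-55125845 (minus), ENG at chr9:127854659-127854908 (minus) and FLT1 at chr13:28495129-28495378 (minus).
FLT1: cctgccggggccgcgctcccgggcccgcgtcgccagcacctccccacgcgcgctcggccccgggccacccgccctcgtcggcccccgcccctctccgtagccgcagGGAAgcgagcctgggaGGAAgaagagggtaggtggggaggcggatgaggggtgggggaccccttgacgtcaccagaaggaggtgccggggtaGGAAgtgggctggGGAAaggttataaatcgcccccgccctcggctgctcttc
ENG: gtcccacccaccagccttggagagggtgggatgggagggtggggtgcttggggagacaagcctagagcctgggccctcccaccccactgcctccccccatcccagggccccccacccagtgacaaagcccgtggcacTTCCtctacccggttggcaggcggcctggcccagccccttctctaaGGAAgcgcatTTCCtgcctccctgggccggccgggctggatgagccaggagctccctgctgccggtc
TIE1: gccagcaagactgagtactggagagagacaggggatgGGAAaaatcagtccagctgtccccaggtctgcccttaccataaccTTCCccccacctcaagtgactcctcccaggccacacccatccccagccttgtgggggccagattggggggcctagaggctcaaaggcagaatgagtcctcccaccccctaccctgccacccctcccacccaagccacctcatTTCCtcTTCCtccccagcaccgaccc
CD34: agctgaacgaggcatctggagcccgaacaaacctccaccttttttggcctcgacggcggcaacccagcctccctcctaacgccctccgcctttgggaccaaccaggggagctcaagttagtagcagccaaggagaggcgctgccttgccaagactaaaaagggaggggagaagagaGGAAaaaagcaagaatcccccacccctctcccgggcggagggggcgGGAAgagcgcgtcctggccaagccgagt
KDR: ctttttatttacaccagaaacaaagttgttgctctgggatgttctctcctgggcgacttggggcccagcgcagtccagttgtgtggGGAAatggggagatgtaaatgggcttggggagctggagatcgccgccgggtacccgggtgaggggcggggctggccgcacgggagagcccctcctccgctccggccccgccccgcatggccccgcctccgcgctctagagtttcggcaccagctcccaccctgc

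Counted on both strands, FLT1 and TIE1 held 4 cores each, ENG 3, CD34 2 and KDR 1. A GGAA core was present in 92.7% of 35116 promoter windows of the same length, with a median of 3, so its presence does not set these genes apart. The longer form AGGAAG, which contains the core, occurred 2 times in FLT1 and ENG and 1 time in TIE1, and in 28.7% of all windows. Its extension AGGAAGT occurred in FLT1 and ENG and in 7.01% of all windows. TIE1 also held 1 pair of cores set 2 bases apart, which 3.11% of windows had. CGGAAG, found in 16.5% of all windows, and a pair of cores with no gap, found in 3.06%, had no match in these 5 windows. Such matches describe letters and do not show binding. Promoter windows were matched for 6 members, of which TEK is not printed. CD93, PECAM1, ESAM and VWF are named only.

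Library totals ran from 32897083 to 46210348 counts. Levels are given in CPM, a gene's counts scaled to a common library size after TMM (a correction for differences in library composition), so that 1 CPM stood for 32 to 45.2 counts. FLI1, whose row counts the targeted fusion and all cDNAs, was at 70.3 ± 16.2 CPM in iLuc against 20.6 ± 0.553 CPM in iEF (SD, n = 3), and no iEF library reached the lowest iLuc library. Among rescues FLI1 was highest for Δ22 (49.5 ± 11 CPM), then 37 ± 2.43 CPM for DAF, 36.3 ± 1.49 for DAF-mut9, 30.7 ± 2.52 for mut9 and 24.5 ± 2.39 for WT-EF (mean ± SD, n = 3). FLI1 with WT-EF was not told apart from iEF (log2 fold change 0.24, adjusted p = 0.196 in the edgeR test described below). The row pools cDNA with any remaining endogenous fusion, so construct RNA alone was not measured. FLI1 reads differed between rescue groups, and their part in the differences below was not tested. Nothing in the labels says that replicates came from separate cultures, but the study describes separate knockdown and rescue experiments. The p-values measure the spread between these libraries.

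Most of the measured endothelial genes were lower in cells that kept endogenous EWS/FLI. In the endo-EF profile (iLuc relative to iEF), 6 of the 8 genes other than CD93 fell, namely KDR, FLT1, TIE1, CD34, ENG and VWF, while 22.4% of all genes tested fell. The median log2 fold change of the 8 genes was -3.40 and that of all genes was 0.01. Calls are from edgeR's quasi-likelihood test at a Benjamini-Hochberg adjusted p below 0.05, with values taken from 1 fit over all genes and libraries. Rescue with WT-EF lowered 5 of the 8 relative to iEF (FLT1, TIE1, CD34, ENG and VWF), against 16.9% of all genes.

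The mutants gave other profiles. Relative to iEF, DAF raised 3 of the 8 (FLT1, CD34 and ENG) and lowered none, where 3.41% of all genes rose. With Δ22 only KDR rose, against 0.881% of all genes, and with DAF-mut9 again only KDR rose, against 1.26%. With mut9 TIE1 and VWF fell, against 8.33% of all genes, and none rose. Over iEF, the 8 genes had a median log2 fold change of 0.65 with DAF, 0.52 with DAF-mut9, 0.33 with Δ22, -0.27 with mut9 and -1.10 with WT-EF, while the median of all genes lay between -0.03 and 0.02. These profiles share the iEF libraries.

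**Figure D1:**
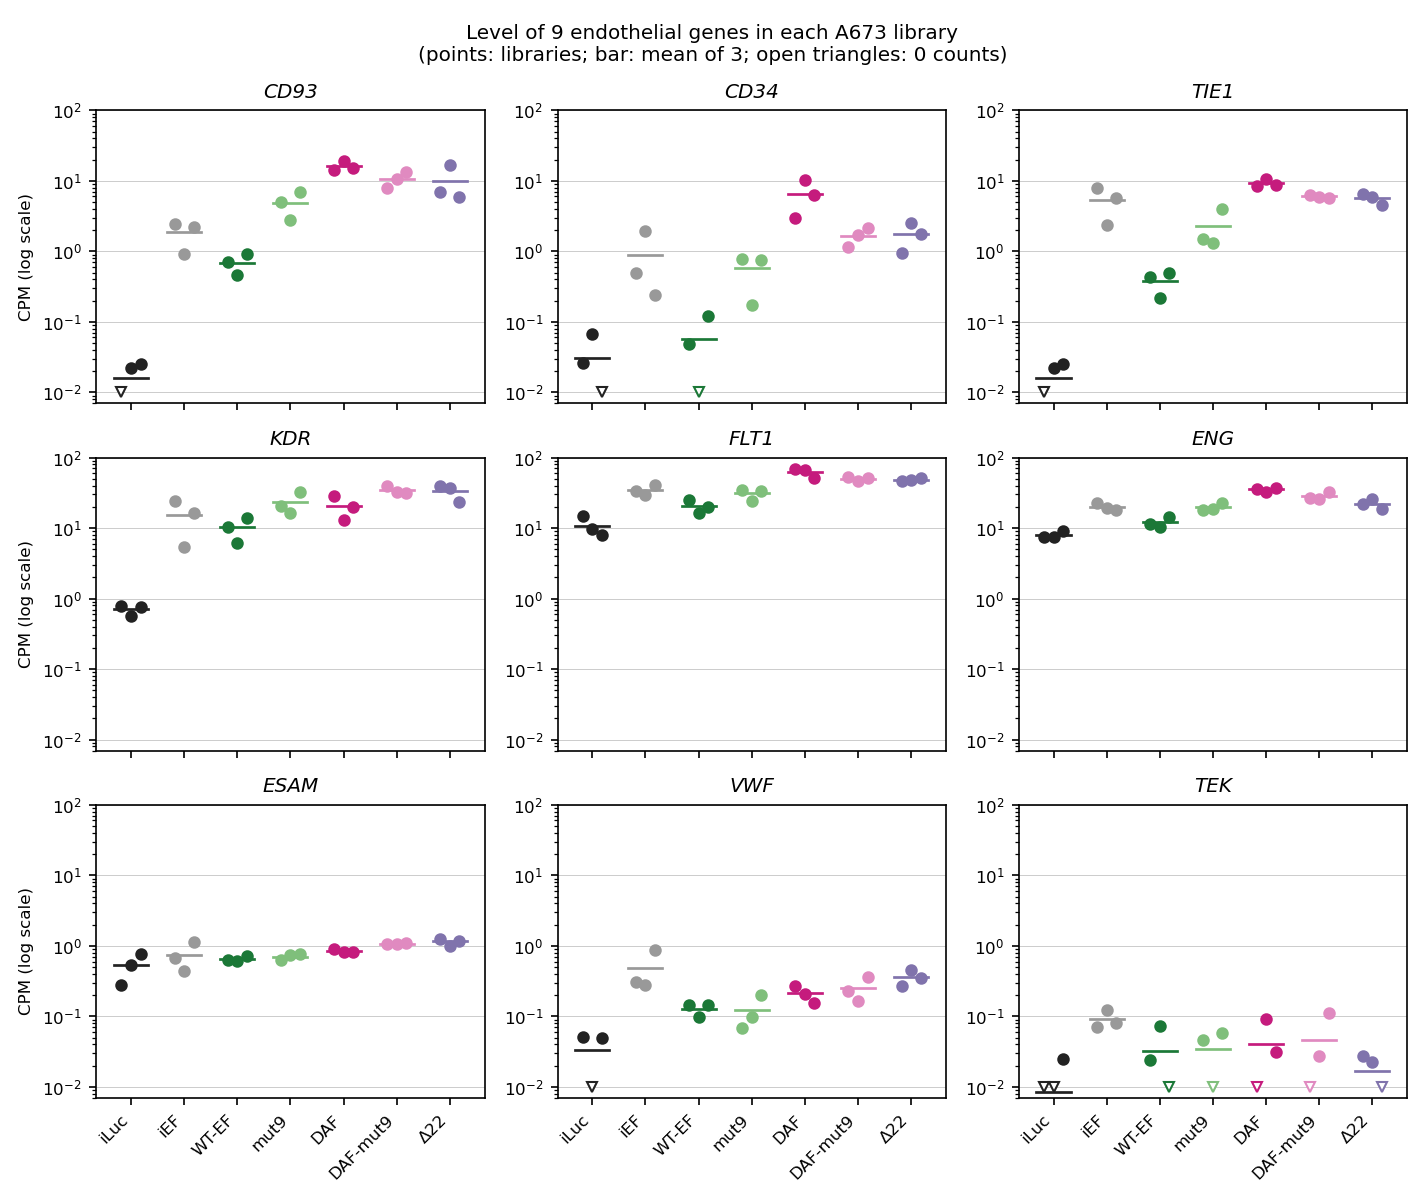
Level of 9 endothelial genes in CPM (log axis) in each of 21 A673 libraries, by group, where points are libraries, bars are means of 3 and open triangles mark libraries with 0 counts. CD93 and TIE1 have at most 1 count in any iLuc library, and CD34 is highest in the 3 DAF libraries.

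CD93 (ENSG00000125810, chromosome 20, 23059997 to 23066961, minus strand, GRCh37) encodes a transmembrane C-type lectin-like receptor of endothelial and myeloid cells. It had 0, 1 and 1 counts in the 3 iLuc libraries, and stood at 2.43, 0.907 and 2.24 CPM in iEF and at 0.697, 0.460 and 0.909 CPM with WT-EF. The level was 14.1, 19.0 and 15 CPM with DAF, 6.91, 16.7 and 5.96 CPM with Δ22, 8.01, 10.7 and 13.3 CPM with DAF-mut9, and 5.06, 2.82 and 6.83 CPM with mut9. All DAF libraries were above all DAF-mut9 libraries, whereas Δ22 overlapped both because its replicate 2 stood far above the other two. Replicate 2 was the lowest library of iEF, WT-EF and mut9.

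From the counts, CD93 was 120-fold higher in iEF than in iLuc, a ratio that rests on 2 iLuc counts in all. The fitted log2 fold change over iEF was 3.09 ± 0.40 (SE) with DAF, 2.48 ± 0.40 with DAF-mut9, 2.40 ± 0.40 with Δ22, 1.36 ± 0.39 with mut9 and -1.46 ± 0.44 with WT-EF. DAF was above iEF in all 3 replicate sets, by 2.52, 4.31 and 2.71 on the log2 scale. These values chose the gene or share its libraries, so none of them was tested.

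Between groups that the choice of CD93 did not use, CD93 was lowest with WT-EF. With mut9 it exceeded WT-EF by 2.82 ± 0.43 on the log2 scale (adjusted p = 0.000396), and mut9 was higher in all 3 sets. It was lower with WT-EF than with Δ22 by -3.85 ± 0.44 (adjusted p = 1.12e-06), again in all sets. The difference of mut9 from Δ22 was -1.03 ± 0.38 and missed the threshold (adjusted p = 0.0981, 95% interval -1.82 to -0.25). It rested on Δ22 replicate 2, without which it was -0.32 (adjusted p = 0.701), and set 3 went the other way. Without mut9 replicate 2 it was -0.66 (adjusted p = 0.485). It passed without Δ22 replicate 3, at -1.44 (adjusted p = 0.021), and with no low-count filter (5.32e-05). DAF-mut9 exceeded mut9 by 1.12 ± 0.37 with no overlap of the libraries, but the adjusted p was 0.0615. This difference passed with DESeq2 (1.16, adjusted p = 0.0332), with no low-count filter (4.75e-06) and with only the compared groups (0.000636). With no low-count filter, mut9 over WT-EF also went to an adjusted p of 7.37e-27, at a similar change of 2.79. These passes without the filter thus came with smaller p-values, not with larger changes. DAF-mut9 differed from Δ22 by 0.09 ± 0.36 (95% interval -0.67 to 0.84).

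TIE1 and TEK encode the endothelial receptor tyrosine kinases of the angiopoietin system. TIE1 (ENSG00000066056, chromosome 1, 43766653 to 43788779, plus strand) had 0, 1 and 1 counts in iLuc and stood at 7.89, 2.35 and 5.65 CPM in iEF. It reached only 0.432, 0.218 and 0.491 CPM with WT-EF and 1.48, 1.33 and 4.01 CPM with mut9. The other rescues were close to iEF or above it, with 8.57, 10.5 and 8.76 CPM for DAF, 6.58, 5.82 and 4.47 CPM for Δ22 and 6.34, 5.95 and 5.72 CPM for DAF-mut9. The DAF libraries were all above those of every other group.

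By counts TIE1 was 345-fold higher in iEF than in iLuc (95% counting interval 95.1 to 2860, with 2 counts in iLuc in all), and the fall in the endo-EF profile had an adjusted p of 3.98e-09. Such a counting interval covers counting error only. WT-EF lowered TIE1 (-3.76 ± 0.43 on the log2 scale, adjusted p = 9.11e-07), with a fall in each of the 3 sets. With mut9 the change was -1.23 ± 0.36 (adjusted p = 0.0241), and this call was lost without iEF replicate 1 or 3 or mut9 replicate 1 or 2 (adjusted p = 0.0628 to 0.171). DAF over iEF was 0.89 ± 0.34 with libraries that did not overlap, but did not pass (adjusted p = 0.142). Without iEF replicate 1 it did, at 1.33 (adjusted p = 0.0364), as it did with no low-count filter, at a nearly equal change of 0.88 (0.00274).

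TEK (ENSG00000120156, chromosome 9, 27109139 to 27230172, plus strand) was at or near the limit of detection in every library, with 0 to 4 counts each. The group sums were 10 counts in iEF, 5 with DAF-mut9, 4 with WT-EF, mut9 and DAF, 2 with Δ22 and 1 in iLuc. No comparison passed the test for TEK, and no fold change is given. In endo-EF TEK was lower in all 3 sets with no overlap of libraries, but missed the threshold (adjusted p = 0.0627). At this depth such a difference could not be settled.

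KDR and FLT1 encode the main receptors for VEGF-A, where KDR carries most of the mitogenic signal and FLT1 binds the ligand tightly with weaker kinase activity. KDR (ENSG00000128052, chromosome 4, 55944648 to 55991762, minus strand) stood at 0.796, 0.575 and 0.752 CPM in iLuc and at 24.6, 5.41 and 16.5 CPM in iEF. It was 10.4, 6.24 and 14.0 CPM for WT-EF, 20.7, 16.3 and 32.2 CPM with mut9 and 28.4, 13.0 and 20.2 CPM with DAF. With Δ22 it was 39.9, 37.2 and 23.6 CPM and with DAF-mut9 39.1, 32.5 and 31.6 CPM. Only iLuc lay clear of all other groups, and iEF was spread so widely that of the groups carrying the EWS/FLI shRNA only DAF-mut9 did not overlap it.

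In endo-EF, KDR fell by 4.35 on the log2 scale (SE 0.40, adjusted p = 1.51e-08), in all 3 sets. It did not pass with WT-EF over iEF, where the change was -0.52 ± 0.31 (adjusted p = 0.242, 95% interval -1.18 to 0.13) and set 2 went the other way. Without iEF replicate 2 the WT-EF change was -0.88 (adjusted p = 0.0265), and without iEF replicate 1 mut9 passed in the opposite direction at 1.05 (adjusted p = 0.0408). With Δ22 KDR rose by 1.28 ± 0.32 (adjusted p = 0.0316) and with DAF-mut9 by 1.29 ± 0.31 (adjusted p = 0.0266). Both calls were lost without iEF replicate 2 or 3, without replicate 1 or 2 of the construct (adjusted p = 0.079 to 0.19), and with no replicate block (0.171 for Δ22 and 0.137 for DAF-mut9), on ComBat-adjusted values (0.238 and 0.197), and for Δ22 also with only the compared groups (0.0681). On ComBat-adjusted values it was FLT1 that rose with DAF-mut9 (adjusted p = 0.0411). KDR over iLuc rose with WT-EF by 3.82 ± 0.39 (adjusted p = 5.31e-07), so that rescue left KDR 14.1-fold above the level seen with the endogenous fusion.

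FLT1 (ENSG00000102755, chromosome 13, 28874483 to 29069282, minus strand) showed little spread within groups. It stood at 14.6, 9.75 and 8.04 CPM in iLuc, 33.2, 29.8 and 40.4 CPM in iEF, 25, 16.4 and 19.8 CPM with WT-EF and 34.3, 24.6 and 33.9 CPM with mut9. It was 68.7, 67.7 and 51.3 CPM with DAF, 53.7, 46.5 and 51 CPM with DAF-mut9 and 46.8, 47.7 and 50.7 CPM with Δ22. Every library of DAF, DAF-mut9 and Δ22 lay above every iEF library, and every WT-EF and iLuc library lay below.

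FLT1 changed on the log2 scale by -1.69 ± 0.18 in endo-EF (adjusted p = 9.83e-08) and by -0.77 ± 0.17 for WT-EF (adjusted p = 0.0015). It rose with DAF by 0.86 ± 0.17 (adjusted p = 0.00271), a 1.82-fold change in the direction opposite to endo-EF, in all 3 sets. The changes of 0.54 ± 0.17 with DAF-mut9 (adjusted p = 0.0852) and 0.50 ± 0.17 with Δ22 (adjusted p = 0.14) missed the threshold. FLT1 with mut9 was close to iEF at -0.17 ± 0.17 (adjusted p = 0.61).

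**Figure D2:**
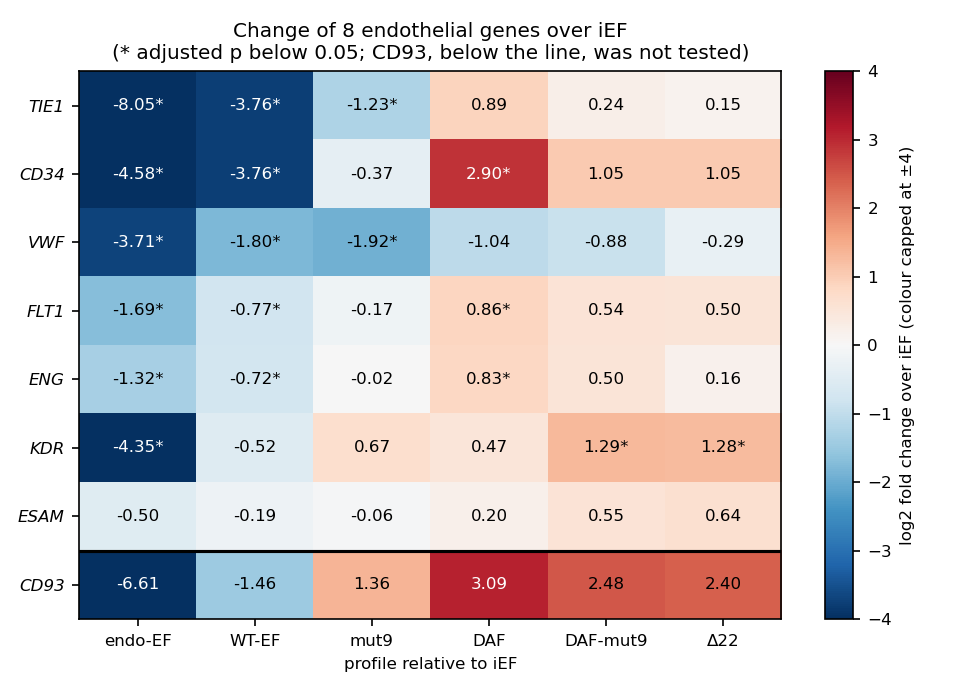
Log2 fold change over iEF of 8 endothelial genes (rows) in the 6 profiles (columns), where asterisks mark an adjusted p below 0.05. CD93, under the line, was not tested, and TEK is left out for its low counts. Above the line, the endo-EF and WT-EF columns are negative for every gene. There the DAF column is positive for every gene but VWF, with 3 calls. CD93 is not counted in this, since its values in endo-EF and with DAF chose it. The share of all genes with such signs is not given. The endo-EF values of TIE1 and CD93 rest on 2 iLuc counts each and depend on how the fit treats low counts.

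CD34 and ENG encode surface proteins of endothelium. CD34 is a sialomucin that also marks blood progenitors, and ENG (endoglin) is a co-receptor for TGF-β family ligands. CD34 (ENSG00000174059, chromosome 1, 208054317 to 208084747, minus strand) had 1, 3 and 0 counts in iLuc and 2, 0 and 5 counts with WT-EF. It stood at 0.490, 1.94 and 0.243 CPM in iEF, 0.786, 0.172 and 0.756 CPM with mut9, 1.16, 1.70 and 2.15 CPM with DAF-mut9 and 0.960, 2.50 and 1.77 CPM with Δ22. With DAF it reached 3.00, 10.2 and 6.35 CPM, above every other library.

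DAF raised CD34 above iEF 7.47-fold (2.90 ± 0.55 on the log2 scale, adjusted p = 0.00199), in all 3 sets. It fell with WT-EF, where the ratio of iEF to WT-EF by counts was 14.5 (95% counting interval 6.78 to 37.2, adjusted p = 0.00215), and in endo-EF, where the ratio of iEF to iLuc was 25.5 (9.64 to 95.7, adjusted p = 0.000495). DAF exceeded WT-EF by a ratio of 113 (54.4 to 282, adjusted p = 1.66e-06). The CD34 change with Δ22 and that with DAF-mut9 was 1.05 each, and neither passed (adjusted p = 0.425 and 0.412).

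ENG (ENSG00000106991, chromosome 9, 130577292 to 130616937, minus strand) stood at 7.37, 7.56 and 9.07 CPM in iLuc, 22.4, 19.0 and 18.3 CPM in iEF and 11.6, 10.4 and 14.5 CPM with WT-EF. It was 18, 18.8 and 22.5 CPM with mut9, 22.2, 25.7 and 18.4 CPM with Δ22, 26.5, 26.2 and 32 CPM with DAF-mut9 and 36.3, 32.9 and 37.2 CPM with DAF. DAF was above all other groups and DAF-mut9 above the rest, with no overlap. Exons of ENG share 313 bases with a gene on the opposite strand, ENSG00000225032, and the strand setting of the counting was not stated, so reads of the pair may not be told apart.

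ENG changed by -1.32 ± 0.15 in endo-EF (adjusted p = 4.26e-07) and by -0.72 ± 0.15 for WT-EF (adjusted p = 0.000898) on the log2 scale, and rose with DAF by 0.83 ± 0.15 (adjusted p = 0.00117). The change was -0.02 ± 0.15 with mut9 (adjusted p = 0.966), 0.16 ± 0.15 with Δ22 (adjusted p = 0.724) and 0.50 ± 0.15 with DAF-mut9 (adjusted p = 0.0707). The last of these passed with DESeq2 (adjusted p = 0.0306) and without iEF replicate 1 (adjusted p = 0.0393).

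ESAM encodes a junctional adhesion molecule and VWF the von Willebrand factor, which is stored in endothelial granules and tethers platelets. ESAM (ENSG00000149564, chromosome 11, 124622479 to 124632186, minus strand) varied little, from 0.283 CPM in an iLuc library to 1.26 CPM in a Δ22 library. The group means ran from 0.530 ± 0.247 CPM in iLuc to 1.15 ± 0.130 CPM with Δ22 (SD, n = 3), and no change of ESAM over iEF passed the test. The ESAM interval for endo-EF and for DAF both spanned 0, the latter from -0.43 to 0.83.

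VWF (ENSG00000110799, chromosome 12, 6058043 to 6233936, minus strand) had 2, 0 and 2 counts in iLuc, 13, 9 and 32 in iEF, 6, 4 and 6 with WT-EF, 3, 4 and 7 with mut9, 10, 7 and 5 with DAF, 9, 6 and 13 with DAF-mut9 and 10, 20 and 14 with Δ22. It was thus highest in iEF, mainly through replicate 3. A near-identical pseudogene exists, so its reads may have been split or dropped. VWF fell in endo-EF (ratio of iEF to iLuc 15, 95% counting interval 5.52 to 57.0, adjusted p = 5.22e-05), with WT-EF (-1.80 ± 0.49, adjusted p = 0.00865) and with mut9 (-1.92 ± 0.50, adjusted p = 0.0118). The call with WT-EF was lost without iEF replicate 3 or WT-EF replicate 3, and that with mut9 without iEF replicate 3 or mut9 replicate 1 (adjusted p = 0.0612 to 0.136). With DAF the change was -1.04 ± 0.47 (adjusted p = 0.228), so VWF, unlike the other members with more than a few counts, had a lower mean with DAF than in iEF. CD93, chosen for its rise with DAF, is not counted among those members.

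The order of the groups by mean level was similar in TIE1, ENG and FLT1, with DAF first and DAF-mut9 and Δ22 next. CD93 is not counted in this order, because its values in endo-EF and with DAF chose it. KDR and ESAM were highest with DAF-mut9 and Δ22, and DAF came after mut9 for KDR. The last place belonged to iLuc for KDR, FLT1, TIE1, CD34, ESAM, ENG and VWF, and WT-EF came directly before it for all of these but VWF. TEK is left out here for its low counts. The share of all genes with such an order is not given. The libraries of DAF-mut9 and Δ22 overlapped for every gene but ENG. WT-EF and iLuc overlapped for CD34, ESAM and TEK. The shares of all genes that overlapped between these groups are not given, so these overlaps only describe the members.

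Direct comparison of DAF with WT-EF set the tyrosine mutant against the wildtype fusion, between groups that also differed in FLI1 reads (0.60 on the log2 scale, adjusted p = 0.00173). KDR, FLT1, TIE1, CD34 and ENG, 5 of the 8, were higher with DAF, against 14.3% of all genes, and the median of the 8 was 1.27 on the log2 scale against -0.03 for all genes. TIE1 differed by 4.65 ± 0.43 (adjusted p = 1.21e-07), FLT1 by 1.64 ± 0.17 (adjusted p = 5.7e-07) and ENG by 1.55 ± 0.15 (adjusted p = 2.12e-07). KDR differed by 0.99 ± 0.31 (adjusted p = 0.0245), with libraries that overlapped. That KDR call was lost without WT-EF replicate 1 or 2 or DAF replicate 1 (adjusted p = 0.108 to 0.124) with no replicate block (0.0663) and on ComBat-adjusted values (0.0929). The untested difference for CD93 was 4.55 ± 0.44.

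Against Δ22, which has no EWS domain, DAF differed for fewer of these genes. Only ENG passed, at 0.67 ± 0.15 (adjusted p = 0.0257), against 0.789% of all genes that rose. This call was lost without Δ22 replicate 1 or 3 or any DAF replicate (adjusted p = 0.0775 to 0.181). CD34 was higher with DAF by 1.85 ± 0.51 in all 3 sets and with no overlap, but its adjusted p was 0.112 (95% interval 0.79 to 2.92). It passed with no low-count filter (1.87, adjusted p = 4.73e-09) and with only the compared groups (1.85, adjusted p = 0.0001), at nearly the same change. For TIE1 the difference was 0.73 ± 0.34 (adjusted p = 0.564, interval 0.02 to 1.44), for FLT1 0.37 ± 0.17 (adjusted p = 0.553, interval 0.02 to 0.72) and for KDR -0.81 ± 0.31 (adjusted p = 0.385, interval -1.46 to -0.17). With no low-count filter KDR passed as lower with DAF (-0.80, adjusted p = 0.000122), and with only the compared groups TIE1 passed as higher (adjusted p = 0.0328). The untested difference for CD93 was 0.69 ± 0.36, with sets at 1.03, 0.19 and 1.32.

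Compared with WT-EF, mut9 left most of these genes higher. KDR, FLT1, TIE1, CD34 and ENG, 5 of the 8, were higher with mut9, against 4.95% of all genes. TIE1 differed by 2.54 ± 0.43 (adjusted p = 0.000979), CD34 by 3.39 ± 0.89 (adjusted p = 0.0246, with 7 counts in all for WT-EF), KDR by 1.19 ± 0.31 (adjusted p = 0.025), ENG by 0.70 ± 0.15 (adjusted p = 0.00576) and FLT1 by 0.61 ± 0.17 (adjusted p = 0.035). The CD34, KDR and FLT1 calls were lost with no replicate block (adjusted p = 0.0508, 0.0957 and 0.0824), and that of KDR also on ComBat-adjusted values (0.12). CD34 was lost without WT-EF replicate 1 or 2 or mut9 replicate 1 or 3 (adjusted p = 0.0689 to 0.179), and KDR without WT-EF replicate 1 or 2 or mut9 replicate 3 (adjusted p = 0.13 to 0.197). FLT1 was lost without any WT-EF replicate or mut9 replicate 1 or 3 (adjusted p = 0.0575 to 0.245), and ENG without WT-EF replicate 2 (0.086). TIE1 and CD93 held in every such fit.

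Against Δ22 and DAF, mut9 was lower. FLT1 (-0.66 ± 0.17, adjusted p = 0.0141) and TIE1 (-1.38 ± 0.36, adjusted p = 0.0164) were lower with mut9 than with Δ22, against 4.64% of all genes. FLT1 lost its call without Δ22 replicate 2 or 3 or mut9 replicate 1 or 2 (adjusted p = 0.0503 to 0.112), and TIE1 without Δ22 replicate 1 or 2 or mut9 replicate 1 or 2 (0.0591 to 0.125). DAF exceeded mut9 for FLT1 (1.03 ± 0.17, adjusted p = 0.000652), TIE1 (2.11 ± 0.36, adjusted p = 0.000947), CD34 (3.27 ± 0.57, adjusted p = 0.00112) and ENG (0.85 ± 0.15, adjusted p = 0.00108), against 3.48% of all genes, and these 4 calls held without any library.

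Of these genes, 3 were higher when the tyrosines left in mut9 were changed as well. DAF-mut9 exceeded mut9 for TIE1 (1.47 ± 0.36, adjusted p = 0.00999), FLT1 (0.71 ± 0.17, adjusted p = 0.00793) and ENG (0.51 ± 0.15, adjusted p = 0.0283), against 5.15% of all genes. The 3 calls were all lost without mut9 replicate 2 (adjusted p = 0.0679 to 0.108). TIE1 was also lost without mut9 replicate 1 or DAF-mut9 replicate 2 (0.0787 and 0.06), and ENG without mut9 replicate 1 or any DAF-mut9 replicate (0.0594 to 0.135).

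DAF-mut9 could not be told from Δ22 on these genes. None of the 8 passed, and edgeR called 0 of 30549 genes, with 671 (2.2%) at an unadjusted p below 0.05. DESeq2 called none of the 8 either. ENG was higher by 0.34 ± 0.15 (interval 0.03 to 0.64), FLT1 differed by 0.05 (interval -0.30 to 0.40) and TIE1 by 0.09 (interval -0.62 to 0.80). KDR, at mean levels of 34.4 and 33.6 CPM, and CD34, at 1.67 and 1.74 CPM, were nearly level, with fitted changes of 0.00. A 2-fold difference thus lay outside the intervals of ENG, FLT1 and TIE1. DAF-mut9 against DAF gave no call either among the 8, against 0.946% of all genes, with CD34 at -1.86 ± 0.51 (adjusted p = 0.114) and no overlap of its libraries.

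Some of these genes stayed at a higher level with WT-EF than with the endogenous fusion. FLI1 reads also differed between these groups (24.5 ± 2.39 CPM with WT-EF, 70.3 ± 16.2 in iLuc), and their part was not tested. Against iLuc, KDR, FLT1, TIE1 and ENG remained higher with WT-EF, 4 of the 8, against 9.78% of all genes. CD34 (adjusted p = 0.785), ESAM (0.582), VWF (0.0792) and TEK (0.515) did not pass. FLT1 differed by 0.92 ± 0.17 (adjusted p = 0.000651) and ENG by 0.60 ± 0.15 (adjusted p = 0.007), and ENG lost its call without WT-EF replicate 3 (adjusted p = 0.0542). TIE1 was 23.6-fold higher by counts (95% counting interval 6.17 to 200, adjusted p = 0.00185). Against Δ22, WT-EF was lower for all of the 8 but TEK, against 14.5% of all genes, with TIE1 at -3.92 ± 0.43 (adjusted p = 6.66e-07), KDR at -1.80 ± 0.32 (adjusted p = 0.000214) and FLT1 at -1.27 ± 0.17 (adjusted p = 9.41e-06). The weakest were ESAM at -0.83 ± 0.29 (adjusted p = 0.0409), lost without any library of either group (0.0529 to 0.157) and with no replicate block (0.0603), and VWF at -1.51 ± 0.50 (adjusted p = 0.0317), lost without any WT-EF replicate or Δ22 replicate 2 (0.052 to 0.208) and with no replicate block (0.0532).

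**Figure D3:**
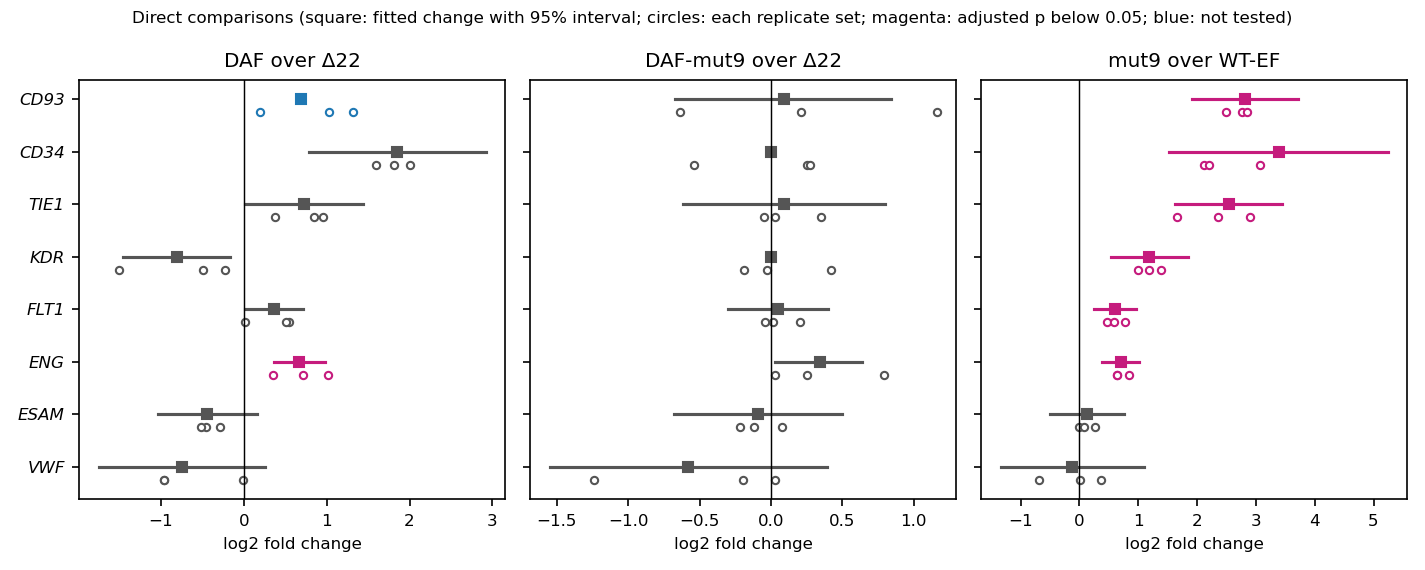
Log2 fold change of 8 endothelial genes between constructs, DAF over Δ22, DAF-mut9 over Δ22 and mut9 over WT-EF, where squares are fitted changes with 95% intervals, circles are the 3 replicate sets, magenta marks an adjusted p below 0.05 and blue marks no test. DAF-mut9 lies around 0 against Δ22, whereas CD93, CD34, TIE1, KDR, FLT1 and ENG are all higher with mut9 than with WT-EF. KDR and CD34 have no interval for DAF-mut9 over Δ22, where the fitted change is 0.00.

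Levels of different genes were compared per kilobase of exon. In iEF, ENG stood at 5.18 ± 0.572 CPM per kb, FLT1 at 2.74 ± 0.430, KDR at 2.44 ± 1.52, TIE1 at 0.790 ± 0.416, CD93 at 0.278 ± 0.124, ESAM at 0.257 ± 0.121, CD34 at 0.0966 ± 0.0994, VWF at 0.0465 ± 0.0318 and TEK at 0.0192 ± 0.00607 (mean CPM per kb ± SD, n = 3). With DAF the level of CD93 was 2.40 ± 0.386 CPM per kb, near that of KDR at 3.24 ± 1.21, and CD34 was at 0.705 ± 0.388. In iLuc, of these genes only ENG, at 2.08 ± 0.243 CPM per kb, was above 1.

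Other endothelial genes from lists did not all follow the members. Over all genes tested, 22.4% fell and 18.7% rose in endo-EF, 16.9% and 11.4% with WT-EF, 8.33% and 6.22% with mut9, 4.02% and 3.41% with DAF, 2.14% and 1.26% with DAF-mut9, and 1.79% and 0.881% with Δ22. Of 26 tested endothelial surface and junction genes, 11 fell and 6 rose in endo-EF, 8 fell and 7 rose with WT-EF, 9 rose and 1 fell with DAF, and 7 rose and 1 fell with Δ22. In this list 9 rose and 4 fell with mut9, and 7 rose and 1 fell with DAF-mut9. The list median over iEF was -0.63 in endo-EF and 0.72 with DAF. PLVAP, a protein of endothelial fenestrae, rose with DAF from 0.323 ± 0.0877 to 3.01 ± 0.441 CPM (log2 fold change 3.19 ± 0.32, adjusted p = 2.15e-06) and with Δ22 to 1.66 ± 0.278 CPM (adjusted p = 0.000705), while its endo-EF change was -0.06 (adjusted p = 0.927). GPR4, a proton-sensing receptor, changed in both directions, with -3.62 in endo-EF (adjusted p = 0.000114), 3.05 with DAF (adjusted p = 3.55e-05) and 2.65 with Δ22 (adjusted p = 0.000893).

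Others of that list moved differently. EMCN, an endothelial sialomucin, rose in each of these profiles, by 3.47 in endo-EF (adjusted p = 1.85e-06), 2.94 with WT-EF (adjusted p = 2.6e-05), 2.63 with DAF (adjusted p = 0.00063) and 2.48 with Δ22 (adjusted p = 0.00382). The water channel AQP1 fell by 7.26 in endo-EF (adjusted p = 9.24e-11), fell by 3.07 with DAF (adjusted p = 1.06e-05) and fell by 1.76 with Δ22 (adjusted p = 0.00607), and the guidance receptor ROBO4 and the adhesion receptor SELE changed by -5.70 and -5.30 in endo-EF (adjusted p = 1.07e-06 and 3.89e-05), with 15 and 7 counts in iLuc in all.

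Of 14 tested endothelial secreted and intracellular genes, 5 fell and 3 rose in endo-EF and the same numbers with WT-EF, 4 rose with DAF and 1 with Δ22, and none fell with either. RASIP1, a regulator of vascular lumen formation, rose in endo-EF (2.75, adjusted p = 5.68e-07) and with DAF (2.88, adjusted p = 9.02e-06), and was higher with DAF than with Δ22 by 2.24 (adjusted p = 0.00026). The secreted proteoglycan ESM1 fell in endo-EF from 224 ± 106 to 1.00 ± 0.0680 CPM (adjusted p = 3.89e-11), and EDN1, the precursor of endothelin, fell by 6.54 (adjusted p = 3.09e-08).

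The coagulation and anticoagulant genes, which include partners of VWF, moved mostly one way. Of 14 tested, 12 fell and none rose in endo-EF, and 11 fell with WT-EF, 8 with mut9 and 2 with DAF, while 2 rose with each of DAF, DAF-mut9 and Δ22. The list median was -1.98 in endo-EF and -0.08 with DAF. THBD (thrombomodulin, an anticoagulant receptor) was at 0.119 ± 0.0405 CPM in iLuc, 12.2 ± 6.21 in iEF, 30.6 ± 7.18 with DAF (adjusted p = 0.00778 over iEF) and 38.4 ± 12.5 with Δ22 (adjusted p = 0.00612). The matrix protein THBS1 fell by 6.40 in endo-EF (adjusted p = 2.89e-15). It rose by 0.65 with DAF (adjusted p = 0.00338), 0.62 with Δ22 (0.0144) and 0.77 with DAF-mut9 (0.00229).

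Of 16 tested VEGF axis genes, 9 fell and 2 rose in endo-EF, 10 fell and 2 rose with WT-EF, 3 fell and 1 rose with DAF, and 3 fell with Δ22. The ligand VEGFC fell by 8.74 in endo-EF (adjusted p = 1.27e-12). FLT4, its receptor and the relative of KDR and FLT1, went the other way, rising by 3.46 in endo-EF (adjusted p = 1.55e-07) and by 2.04 with DAF (adjusted p = 0.00189), and it was higher with DAF than with Δ22 by 2.05 (adjusted p = 0.00639). The co-receptor NRP2 fell by 2.63 with DAF (adjusted p = 7.06e-05) and fell by 2.07 with Δ22 (adjusted p = 0.00267).

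Of 17 tested angiopoietin and endoglin axis genes, 11 fell and 2 rose in endo-EF, 8 fell and 4 rose with WT-EF, 2 fell and 4 rose with DAF, and 1 fell and 2 rose with Δ22. ACVRL1, the receptor that signals with endoglin, fell by 2.29 in endo-EF (adjusted p = 0.00161), as ENG did, but rose by 1.80 with WT-EF (adjusted p = 0.00356), where ENG fell, and by 2.36 with DAF (adjusted p = 0.00176). The ligand ANGPT2 fell by 2.68 in endo-EF (adjusted p = 4.38e-08), and ANGPT1 rose with DAF by 1.01 (adjusted p = 0.00844) and with Δ22 by 1.06 (adjusted p = 0.0161). Of 12 Notch genes of endothelium, 5 fell and 2 rose in endo-EF, 1 fell and 1 rose with DAF, and 2 fell with Δ22, among them the target gene HEY1 (-1.54, adjusted p = 0.0316).

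Of 24 tested endothelial transcription factor genes, 13 fell and 3 rose in endo-EF, 11 fell and 4 rose with WT-EF, 2 fell and 3 rose with DAF, and 3 fell and 3 rose with Δ22. ETS1 fell in endo-EF from 356 ± 178 to 6.01 ± 2.07 CPM (log2 fold change -5.86, adjusted p = 4.15e-11) and with WT-EF (-2.66, adjusted p = 1.01e-06), and its change with DAF was -0.78 (adjusted p = 0.116). ERG, the ETS factor most typical of endothelium, was at 1.58 ± 0.45 CPM in iEF and under 1 CPM in every other group. It fell in endo-EF (-5.50, adjusted p = 2.13e-07), with DAF (-2.68, adjusted p = 0.00077) and with Δ22 (-1.92, adjusted p = 0.0154). The fall was not particular to these, as ERG also fell with WT-EF (-1.32, adjusted p = 0.0153), mut9 (-2.16, 0.0012) and DAF-mut9 (-1.73, 0.0229). Unlike CD34, FLT1 and ENG, it did not rise with DAF. SOX17, with 1 count in iLuc in all, and FOXC2, with 2, fell in endo-EF (adjusted p = 4.9e-08 and 7.94e-09).

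**Figure D4:**
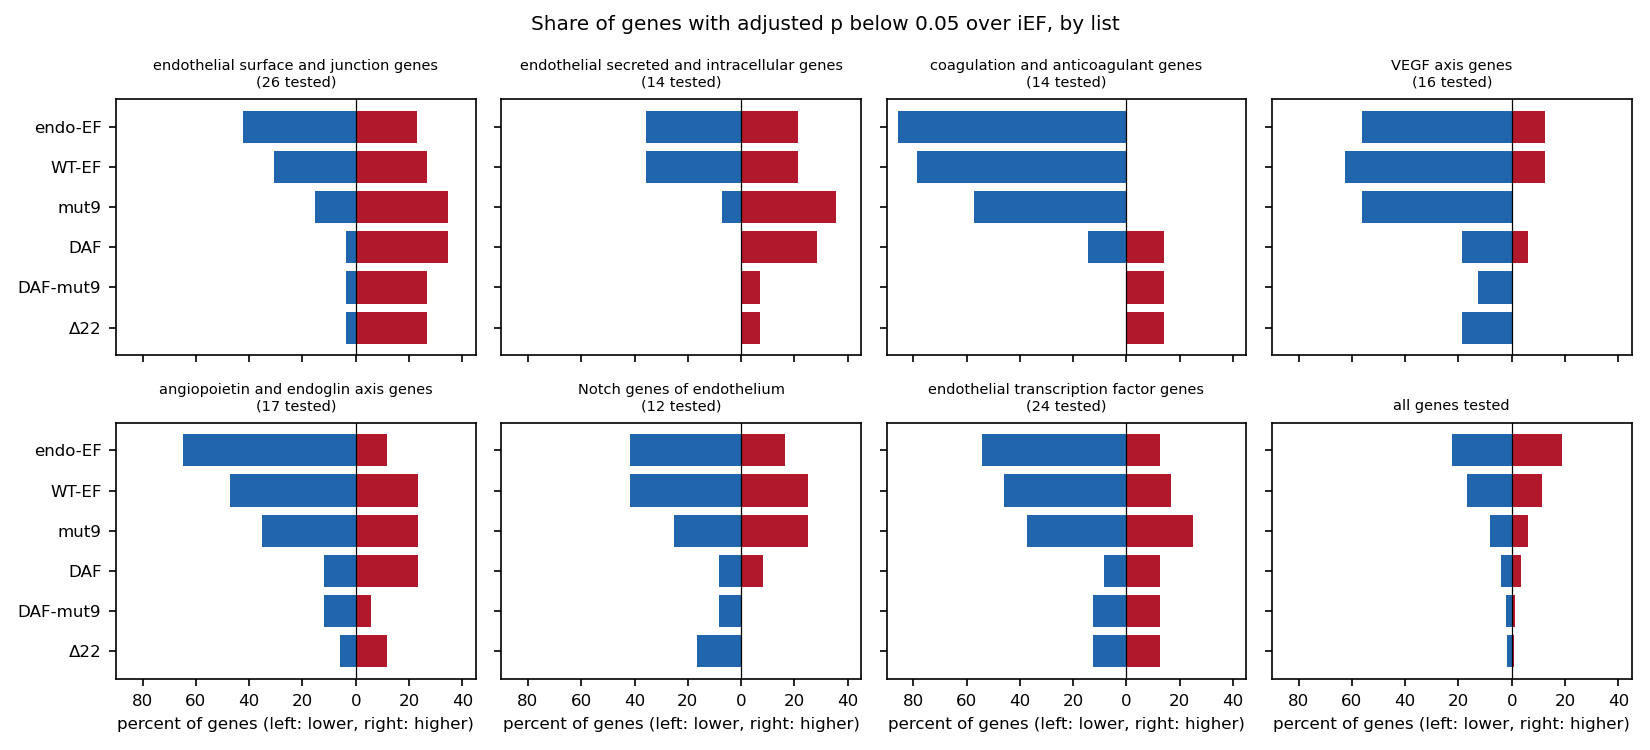
Percent of the tested genes of 7 lists, and of all genes tested (lower right), with an adjusted p below 0.05 over iEF, where bars to the left are lower and bars to the right higher. Coagulation genes fall with endo-EF, WT-EF and mut9, and surface and junction genes rise with mut9, DAF, DAF-mut9 and Δ22 more often than they fall.

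The cells did not carry the full endothelial marker set. Of 9 measured endothelial markers (CDH5, CLDN5, TIE1, TEK, ROBO4, EMCN, ERG, VWF and KDR), 3 were under 1 CPM in iEF, 8 in iLuc, 7 with WT-EF and 5 in each other group, and none was at 0 over a whole group. Their summed level was 14.7 to 47.1 CPM in iEF, 19.2 to 32.5 in iLuc (where EMCN made up most of it), 20.4 to 44.1 with WT-EF, 31.6 to 66.9 with mut9, 34.4 to 60.9 with DAF and 53.0 to 63.2 with DAF-mut9. Because CD93 and CD34 are also expressed by blood cells, 6 blood markers (PTPRC, SPI1, CD14, ITGAM, CD3E and HBB) were summed, and reached 4.31 to 4.67 CPM with DAF, 3.75 to 26.5 in iEF, 0.976 to 1.3 in iLuc, 1.97 to 2.36 with WT-EF, 2.76 to 4.58 with mut9, 2.14 to 3.13 with DAF-mut9 and 2.02 to 3.19 with Δ22. The T cell gene CD3E was at 0 in every group but Δ22 and the globin gene HBB in every group but mut9. In these bulk samples, fewer cells of a type and less RNA per cell cannot be told apart, and the part of other cell types in the results was not tested.

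CD14, a myeloid co-receptor, fell in endo-EF (adjusted p = 1.36e-06) and rose with DAF over iEF, from 0.699 ± 0.256 to 2.93 ± 0.230 CPM (adjusted p = 8.08e-05). CD14 also rose with mut9 (1.27, adjusted p = 0.00402) and DAF-mut9 (1.14, adjusted p = 0.0333). The myeloid integrin gene ITGAM was at 9.90 ± 13.1 CPM in iEF and fell with DAF (adjusted p = 0.00407), as in every other profile over iEF (adjusted p = 8.38e-05 to 0.0344). Of 15 Ewing sarcoma cell genes, 1 rose and 1 fell with Δ22, 3 rose and 1 fell with DAF-mut9, 8 rose with DAF, 12 with each of mut9 and WT-EF, and 14 in endo-EF. The list holds FLI1 and EWSR1, parts of which are in the fusion, so their rows can count the fusion or the cDNAs. The gene that rose with Δ22 was FLI1 (1.25, adjusted p = 4.85e-05). FLI1 also passed as higher in endo-EF and with mut9, DAF and DAF-mut9, so these counts do not describe cell identity alone. The sum of 6 Ewing markers (FLI1, NKX2-2, NR0B1, CD99, STEAP1 and PPP1R1A) was 82.3 to 101 CPM in iEF and 307 to 349 CPM in iLuc.

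The genes whose log2 CPM followed CD93 most closely over the 21 libraries, among 14244 genes, were CDYL2 (Pearson r = 0.978), CEP89 (0.976), NAGK (0.976), STK38 (0.975) and CYB5R2 (0.974). The libraries share 7 groups, so these correlations describe the group pattern and carry no test. CDYL2 stood at 0.324 ± 0.0463 CPM in iLuc, 12.6 ± 5.93 in iEF, 4.95 ± 1.90 with WT-EF and 45.2 ± 10.1 with DAF. Among the members the correlation with CD93 was 0.951 for ENG, 0.942 for TIE1, 0.941 for FLT1, 0.920 for KDR, 0.859 for CD34, 0.703 for ESAM, 0.652 for VWF and 0.216 for TEK.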

How the data were processed

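RNA-seq libraries of A673 cells in 7 groups of 3 were analysed, with groups and replicate numbers taken from the sample labels. The authors deposited raw counts for Ensembl genes, obtained by alignment of paired reads (STAR, hg19) and counting with htseq-count (intersection-strict). Neither the annotation release nor the strand setting is given in the sources used here. The authors also deposited a ComBat-adjusted signal per gene, rounded here and used only as an alternative, in which CD93, TIE1 and CD34 were not analysed. The deposited table of the authors' own comparisons (fold changes and p-values) was not used. 5 summary rows at the end of the counts were empty.

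The 30549 of 57820 genes whose counts averaged 1 or more over the libraries were tested in R 4.3.3 with edgeR 4.0.16, by TMM, a quasi-likelihood fit with terms for group and replicate set to all 21 libraries, and Benjamini-Hochberg adjustment over all genes tested in each of 16 comparisons. The SE is the log2 fold change divided by the square root of F, and is not given for a change of 0. Intervals are 95%. Count ratios of groups with few counts have exact binomial intervals, scaled by library size. The fit was tested on simulated data. The replicate set is a term because the study made separate knockdown and rescue experiments and adjusted each set. As a check, deviations from the group mean of libraries with the same number correlated at 0.176 on average over 63 pairs, of which 42 were above 0.1. The average for other numbers was -0.088. Because the deviations cancel out within each group, this value follows from the first and is not a separate comparison. Replicates correlated at 0.9634 to 0.995 over genes, and none of 21 pairs agreed within counting noise.

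The members and gene lists were chosen with earlier results of these data known. Named genes were the members, FLI1, the 5 genes most like CD93, and up to 3 genes each way per list by absolute change in DAF, Δ22 and endo-EF, averaging at least 1 CPM over the 21 libraries, at an adjusted p below 0.05 and with the same direction in all 3 sets. Not every such gene is printed. ERG was named outside this rule, after its values were seen. Positions come from GENCODE 44 as lifted over to GRCh37. Alternatives were DESeq2 1.42.0, no replicate block, RLE scaling, no low-count filter, filterByExpr, ComBat-adjusted values, only the compared groups, and leaving out each library. Part of the blood marker list is not reported here.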

Additional observations from a re-analysis of the deposited data

How the results depend on the processing

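With no replicate block, the members called came to 0 for Δ22 and 0 for DAF-mut9 over iEF and to 2 for mut9 over WT-EF, and the block moved no other count of members by over 1.5 times. With no low-count filter they came to 3 for Δ22 over iEF, 3 for DAF-mut9 over iEF, 3 for DAF against Δ22 (KDR lower, CD34 and ENG higher), 5 for mut9 against Δ22, 5 for DAF-mut9 over mut9 and 2 for DAF-mut9 against DAF. With only the compared groups they came to 0 for Δ22 over iEF, 3 for DAF over Δ22, 5 for DAF-mut9 over mut9 and 3 for DAF-mut9 against DAF, and with DESeq2 to 2 for DAF-mut9 over iEF. On ComBat-adjusted values, which allowed a test of 6 members, they came to 3 for WT-EF, 0 for Δ22 and 1 for mut9 over iEF, and to 2 for DAF over WT-EF, 2 for DAF over mut9 and 2 for mut9 over WT-EF. There TIE1 and CD34 could not be tested, and KDR, which was tested, lost its call with Δ22 over iEF, DAF over WT-EF and mut9 over WT-EF. The cause of the other shifts was not tested. RLE scaling and filterByExpr moved no count by over 1.5 times. The shares of all genes called under these settings, or with a library left out, are not given here. The counts of members in this section therefore cannot be told from a shift in calls over all genes.

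Leaving out each library gave 6 members called in endo-EF every time, 3 to 4 for DAF, 4 to 6 for WT-EF, 0 to 1 for Δ22, 0 to 2 for mut9 and 0 to 2 for DAF-mut9 over iEF. It gave 4 to 5 for DAF over WT-EF, 0 to 1 for DAF over Δ22, 4 for DAF over mut9, 1 to 5 for mut9 over WT-EF, 0 to 2 for mut9 against Δ22, 5 to 6 for WT-EF against Δ22, 3 to 4 for WT-EF over iLuc and 0 to 3 for DAF-mut9 over mut9.

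Of the values for single members, 1455 kept their direction and side of the threshold, 79 lost a call, 39 gained one, 3 moved and 38 changed sign, none of the last with a call. When libraries were left out, CD93 in DAF-mut9 against Δ22 ran from -0.30 to 0.85, KDR from -0.29 to 0.45, FLT1 from -0.06 to 0.11, TIE1 from -0.16 to 0.31, CD34 from -0.26 to 0.24 and ESAM from -0.19 to 0.06. In the same comparison CD34 was 0.02 with DESeq2, 0.01 with RLE scaling and 0.01 with filterByExpr. For mut9 over iEF, CD34 ran from -1.12 to 0.50, ESAM from -0.31 to 0.23 and ENG from -0.15 to 0.11, and for Δ22 over iEF, TIE1 ran from -0.21 to 0.61, ENG from -0.02 to 0.33 and VWF from -0.75 to 0.20. ESAM ran from -0.43 to 0.11 with WT-EF and from -0.04 to 0.52 with DAF over iEF, and TIE1 from -0.12 to 0.69 with DAF-mut9. KDR in DAF against mut9 ran from -0.42 to 0.07, CD34 in WT-EF against iLuc from -0.31 to 1.70, ENG in mut9 against Δ22 from -0.35 to 0.00, and VWF from -0.41 to 0.10 in mut9 against WT-EF and from -0.26 to 0.53 in DAF-mut9 against DAF. The calls of FLT1, CD34 and ENG with DAF over iEF held in every alternative that could test them. Depth limits TEK, VWF and CD34, which held few counts in several groups.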
